A study of Mus musculus with 24 samples.

Results

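Sox1, Sox2, Sox4, Sox5, Sox6, Sox8, Sox9, Sox11 and Sox21, 9 genes of the Sox family of transcription factors, were followed from mouse embryonic stem cells (mESCs) to neural stem cells (NSCs). They were taken by symbol from the 23119 genes of the deposited expression table, where each symbol was found in 1 entry, and all 9 passed the filter on low values that left 12105 genes for testing. In WT cells Sox2 alone made up 97.8% of the summed level of the 9 genes in mESCs and 27.9% in NSCs. Sox1 was high at day 7 and day 9 and low in mESCs and NSCs, and Sox4, Sox5, Sox6, Sox8 and Sox9 were highest in NSCs. In the SmcHD1-mutant (KO) line Sox1 was higher than in WT at day 7, Sox1, Sox8 and Sox21 were higher at day 9, and Sox2, Sox9, Sox11 and Sox21 were lower in NSCs. Each of these calls was lost when any of several single libraries was left out, and those in NSCs also when the 6 NSC libraries were fitted alone.

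The study examined the inactive X chromosome during differentiation, and its RNA-seq compared a wild-type line with a line mutant for SmcHD1, a chromatin protein of the inactive X. All groups came from JB4/EI7HZ2, a female mESC line of mixed JF1 and B6 parentage (JF1 mother, B6 father) that carries a zeocin resistance gene on the JF1 X and a neomycin resistance gene on the B6 X. The KO was made from it by CRISPR–Cas9 with a guide to the ATPase domain of SmcHD1, and WT and KO were 1 line each, so genotype and line cannot be told apart. Each line was sequenced as mESCs, as day 7 and day 9 cells and as NSCs, with 3 libraries in each of the 8 groups, 24 in all. The mESCs were grown in serum with inhibitors of MEK and GSK3 and with LIF, and G418 and Zeocin were in the medium to keep both X chromosomes. The day 7 and day 9 cells were early neurectoderm, made through epiblast-like cells and then aggregates in suspension. The NSCs were made by another protocol, from attached cultures through a short aggregate step to outgrowth on gelatin, and kept in FGF2 and EGF. Their media also held G418 and Zeocin, which the study's methods do not name for the day 7 and day 9 cells. A difference between day 9 and NSCs is therefore also one between protocols. Poly(A) RNA was measured in bulk, in which fewer cells of a type and less RNA per cell cannot be told apart. The study describes the replicates as biologically independent experiments, so the p-values measure the spread between experiments on the same 2 lines.

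Sox proteins bind DNA through an HMG box, a short domain that bends the helix, and they act with partner factors that differ between cell types. The SoxB1 proteins (Sox1, Sox2 and Sox3) keep neural progenitors undifferentiated, and Sox2 is also a core factor of pluripotency together with Oct4, the product of Pou5f1. The SoxB2 protein Sox21 counters SoxB1 factors in neural progenitors. The SoxC proteins Sox4 and Sox11 act in differentiating neurons, the SoxD proteins Sox5 and Sox6 lack a transactivation domain of their own and modulate other Sox factors, and the SoxE proteins Sox8 and Sox9 act in gliogenesis, neural stem cells and the neural crest. Sox3 lies on the X chromosome, whose reads the authors removed, and it was listed at 0 in every library.

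The subgroups can be read in the coding sequence of the HMG box. A stretch of 60 bases from the start of the box is printed for 1 member of each subgroup with a gene model, 5′ to 3′ on the coding strand, and capitals mark bases that differ from Sox2 at the same place. It covers codons 42 to 61 of Sox2, 7 to 26 of Sox21, 48 to 67 of Sox11, 555 to 574 of Sox5 and 104 to 123 of Sox9, read from GENCODE models on NCBIM37, the mm9 genome of the files.
Sox2: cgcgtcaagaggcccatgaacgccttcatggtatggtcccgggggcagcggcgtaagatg
Sox21: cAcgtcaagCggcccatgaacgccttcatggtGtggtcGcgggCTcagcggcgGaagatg
Sox11: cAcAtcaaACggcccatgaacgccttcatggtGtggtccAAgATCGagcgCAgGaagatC
Sox5: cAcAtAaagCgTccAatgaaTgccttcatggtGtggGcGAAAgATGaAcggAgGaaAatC
Sox9: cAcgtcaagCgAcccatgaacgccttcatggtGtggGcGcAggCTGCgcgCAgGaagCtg
Sox21 differed from Sox2 at 7 of the 60 bases, Sox11 at 15, Sox5 at 21 and Sox9 at 15. Over all 79 codons of the box, translated by the same models, the 4 pairs of members that share a subgroup letter had 92.4% to 98.7% identical residues, and the other 24 pairs had 46.8% to 68.4%. Sox2 and Sox21 shared 92.4%, and Sox8 and Sox9, the most alike pair, 98.7%. Sox1 was not compared, since no model of it was used.

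**Figure D1:**
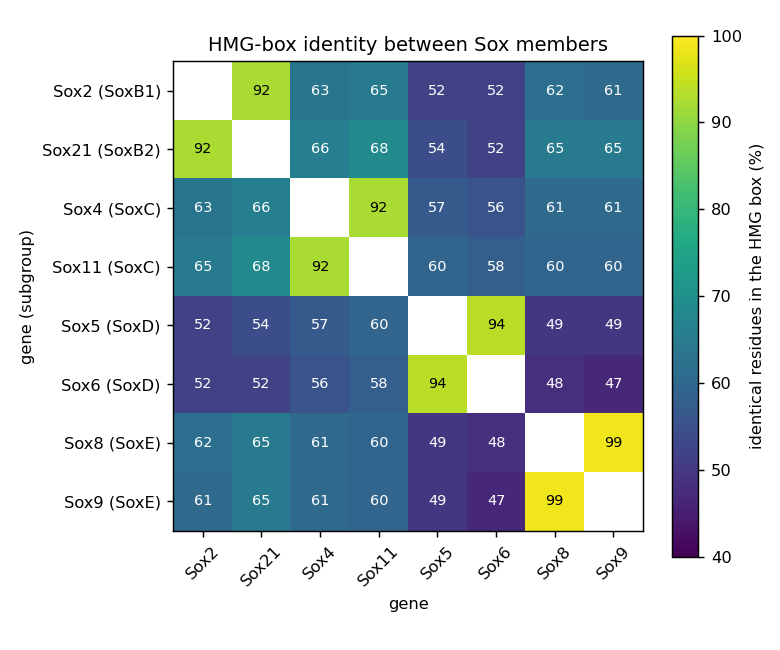
Identity of the HMG box between 8 of the members, as the percentage of identical residues over the 79 codons of the box, with members in both rows and columns and a lighter, yellower cell for a higher percentage. The 4 pairs within a subgroup letter stand out at 92.4% to 98.7%, against 46.8% to 68.4% in the other pairs.

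Promoters are printed for the 3 SoxB genes, since Sox1 was called between KO and WT at both day 7 and day 9 and the KO effect on Sox2 and Sox21 differed between day 9 and NSCs. Each is the 250 bases before the annotated start in RefSeq (GRCm38.p6), on the strand of the gene. All of them were found letter for letter in mm9, at chr8:12395269-12395518 on the plus strand for Sox1, chr3:34548667-34548916 on the plus strand for Sox2 and chr14:118636253-118636502 on the minus strand for Sox21. Capitals mark ACAATG or ACAAAG, a pair of words that Sox proteins bind, searched on both strands; the words cannot overlap each other.
Sox1: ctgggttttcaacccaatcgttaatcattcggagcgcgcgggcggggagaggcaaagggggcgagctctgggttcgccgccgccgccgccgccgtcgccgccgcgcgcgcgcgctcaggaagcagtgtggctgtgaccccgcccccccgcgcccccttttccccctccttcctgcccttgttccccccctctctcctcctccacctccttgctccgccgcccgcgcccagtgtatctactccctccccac
Sox2: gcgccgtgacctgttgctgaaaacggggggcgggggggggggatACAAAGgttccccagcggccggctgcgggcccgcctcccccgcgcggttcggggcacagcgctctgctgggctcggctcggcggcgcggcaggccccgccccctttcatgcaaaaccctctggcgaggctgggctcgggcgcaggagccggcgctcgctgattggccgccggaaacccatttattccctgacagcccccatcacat
Sox21: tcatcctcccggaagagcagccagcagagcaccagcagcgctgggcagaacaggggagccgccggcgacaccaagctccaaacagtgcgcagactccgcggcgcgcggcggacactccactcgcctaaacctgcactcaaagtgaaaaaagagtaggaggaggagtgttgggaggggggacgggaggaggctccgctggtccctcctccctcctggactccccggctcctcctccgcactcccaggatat
The Sox2 promoter held ACAAAG once, from base 45, and the other 2 held neither word. They had 71.2% G and C with 29 CG pairs in Sox1, 72% with 27 in Sox2 and 65.2% with 17 in Sox21. Of 32851 promoters of this length 25.2% held either word, and of the 8 members with a promoter in the table Sox2, Sox5 and Sox6 did so in at least 1 of theirs, 7 of 13 promoters in all. Most of these 7 were promoters of Sox6, the member with the most promoters, so they do not count as separate genes. No methylation or binding was measured at these windows here.

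In Smchd1, the gene targeted, the 12 WT libraries lay between 12.96 and 26.4 FPKM and the 12 KO libraries between 1.82 and 4.40. FPKM count fragments against transcript length and library size, so levels of different genes can be set side by side. The log2 difference was between -2.41 and -1.96 at the 4 stages. Relative depth was estimated from the commonest ratio of the FPKM of low genes to those of a reference library, and ran from 0.811 to 1.15. The library normalization is not given, so this estimate need not equal the number of reads, and the total is not known. The stages were checked with marker lists, each given as the sum of FPKM over the list. The pluripotency markers summed to between 2473 and 2979 in the 6 mESC libraries and to at most 12.6 in the NSCs. The neural stem cell markers summed to between 4064 and 7054 in NSCs and to at most 155 in mESCs. Olig1 and Olig2, transcription factors of oligodendrocyte precursors, were also high in NSCs, with means of 1121 and 338 FPKM in WT, while the other 3 oligodendrocyte-lineage markers had WT means of 17.7 (Pdgfra), 6.37 (Cspg4) and 5.56 (Sox10). Neuron markers summed to no more than 28.3 there. Within groups the log2 values of 2 libraries correlated at r of at least 0.971, except in WT NSCs, where replicate 1 stood apart from the other 2 (r = 0.955 and 0.964, against 0.982 between these).

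Tests were made with limma on log2(FPKM + 1) over all 24 libraries, and differences are on that scale, which understates those of low genes. Calls were made at a Benjamini-Hochberg adjusted p below 0.05, over the 12105 genes. Exact permutation of 3 against 3 libraries gives no p below 0.1, so every p here is limma's.

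Sox2 went down on leaving pluripotency and Sox1 appeared. Sox2 stood at 310, 316 and 317 FPKM in WT mESCs and at 148, 134 and 131 at day 7, a fall of 1.19 (SE 0.13, adjusted p = 1.16e-07). Sox1 stood at 0.400, 0.427 and 0.443 FPKM in WT mESCs and at 45.1, 38.0 and 33.1 at day 7, a difference of 4.79 (SE 0.19, adjusted p = 9.77e-15). No day 7 library came near the mESC libraries in either gene. Of the 9 members, 7 rose and Sox2 fell in WT between mESCs and day 7, where 59.2% of all genes were called. Sox6, at 0.200 ± 0.214 (SD, n = 3) in mESCs and 0.501 ± 0.168 at day 7, was not called (adjusted p = 0.114), and was called without WT mESC replicate 1 (adjusted p = 0.0383) and with a pseudocount of 0.1 in place of 1 (adjusted p = 0.0149). In KO all 9 were called, 8 higher and Sox2 lower, where 61.3% of all genes were. The median difference of the members was 2.84 in WT and 2.89 in KO, and that of all genes tested was -0.02 and -0.04.

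From day 7 to day 9 the SoxC, SoxD and SoxE genes rose in WT and the SoxB genes were not called. Sox11 rose by 1.08 (SE 0.17, adjusted p = 3.61e-05), from 35.4 ± 3.32 to 76.1 ± 4.24 FPKM (SD, n = 3), and Sox5 by 1.05 (SE 0.14, adjusted p = 7.18e-06). In all, 6 of the 9 rose and none fell, with 33.8% of all genes called. Sox1 ran the other way, from 38.7 ± 6.01 to 27.7 ± 4.55 FPKM with no overlap, but was not called (adjusted p = 0.0641). It was called without WT day 9 replicate 1 (adjusted p = 0.0408), with only the compared groups (0.0253) and in a fit blocked by replicate number (0.0483), and in KO, where the difference was -0.45 (adjusted p = 0.0772), with only the compared groups (0.00212). Sox4 was not called without WT day 9 replicate 3 (adjusted p = 0.0571). In KO 5 of the 9 rose, Sox4, Sox5, Sox6, Sox8 and Sox11, with 30.6% of all genes called. Sox9, called in WT, was not called in KO, at 6.63 ± 1.48 FPKM at day 7 and 7.77 ± 0.973 at day 9 (difference 0.21, adjusted p = 0.486). Whether this change differed between the lines was not tested. The Sox4 call in KO was lost without any of KO day 7 replicate 1 (adjusted p = 0.0535), KO day 7 replicate 3 (0.0626), KO day 9 replicate 2 (0.0686) and KO day 9 replicate 3 (0.0925), and that of Sox11 with a pseudocount of 0.1 (0.0537).

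**Figure D2:**
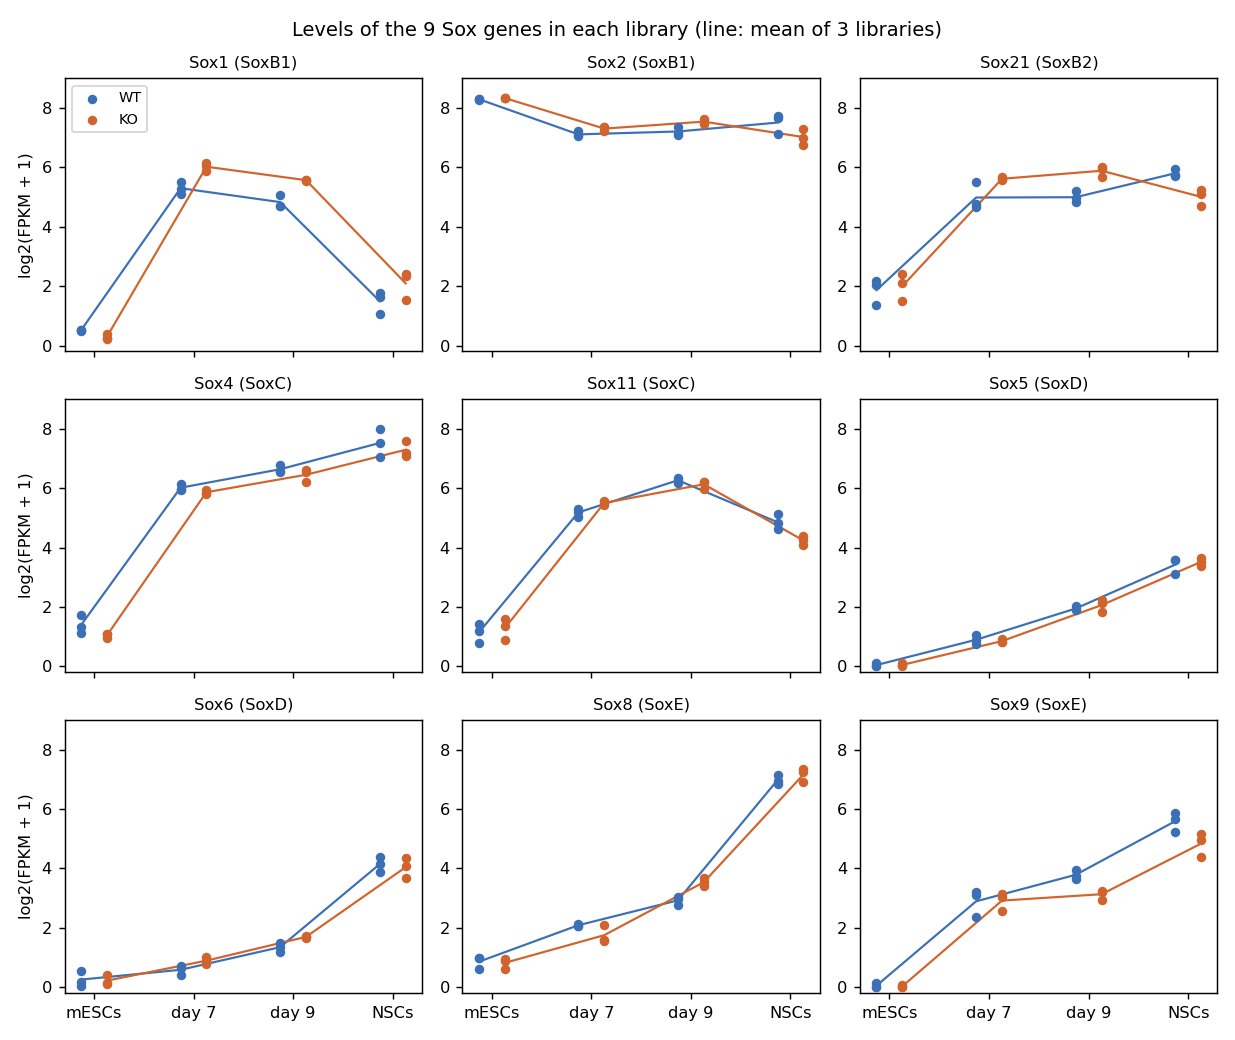
Levels of the 9 genes by stage, as log2(FPKM + 1) on the vertical axis, with 1 point for each of the 24 libraries, WT in blue and KO in orange, and lines through the group means. Sox2 was highest in mESCs and Sox1 at day 7, Sox11 peaked at day 9, and Sox4, Sox5, Sox6, Sox8 and Sox9 were highest in NSCs.

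The SoxD and SoxE genes rose further in NSCs, and Sox1 and Sox11 fell. Sox8 stood at 7.23, 5.77 and 6.76 FPKM in WT day 9 libraries and at 123, 113 and 139 in WT NSCs, a difference of 4.05 (SE 0.15, adjusted p = 3.04e-15). Sox6 went from 1.54 ± 0.271 to 16.8 ± 3.18 FPKM (SD, n = 3), and Sox9, a factor of glial fate and neural stem cells, from 12.8 ± 1.58 to 48.0 ± 11.0. Sox1 fell by 3.34 to 2.38, 2.14 and 1.11 FPKM in WT NSCs (SE 0.19, adjusted p = 2.45e-12), and Sox11 fell by 1.41 (SE 0.17, adjusted p = 2.89e-07). Between WT day 9 and WT NSCs 6 members rose and 2 fell, with 55.1% of all genes called. Sox2, from 148 ± 15.3 to 185 ± 39.8 FPKM, was not called (adjusted p = 0.0618). It was called without WT day 9 replicate 1 (adjusted p = 0.0370), without WT NSC replicate 1 (adjusted p = 0.00101) or with libraries scaled to one sum of FPKM (adjusted p = 0.0484).

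In KO all 9 members were called between day 9 and NSCs, 5 higher and 4 lower, where 59.6% of all genes were. The difference of Sox21 had opposite signs in the 2 lines, with a rise of 0.81 in WT (SE 0.23, adjusted p = 0.00487) and a fall of 0.88 in KO (SE 0.23, adjusted p = 0.00227). Sox2 fell in KO by 0.52 (SE 0.13, adjusted p = 0.00199), but with libraries scaled to one sum the fall was 0.28 (adjusted p = 0.125). Against mESCs, all 9 were called in NSCs of either line, 8 higher and Sox2 lower, where 75.2% of all genes were called in WT and 76% in KO. The call of Sox2 in WT was lost with libraries scaled to one sum (adjusted p = 0.0525). Sox9 and Sox5 had the smallest starting values, and their mESC libraries are given singly. Sox9 was listed at 0.0973, 0 and 0 FPKM in WT mESCs and at 0.0548, 0 and 0 in KO, and Sox5 at 0, 0.0893 and 0 in WT and at 0, 0.0299 and 0.0685 in KO.

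The make-up of the summed Sox level changed with stage. The 9 genes summed to 322 ± 2.07 FPKM (SD, n = 3) in WT mESCs and 319 ± 24.8 at day 7, and then to 405 ± 21.1 at day 9 and 660 ± 108 in NSCs. Sox2 took 97.8% of it, then 43.2%, 36.4% and 27.9%. At day 7 Sox4 took 20.1%, Sox1 12.1% and Sox11 11.1%, and in NSCs Sox4 took 28.3% and Sox8 19.3%. In KO Sox1 took 16.8% at day 7 and Sox8 took 26.6% in NSCs.

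**Figure D3:**
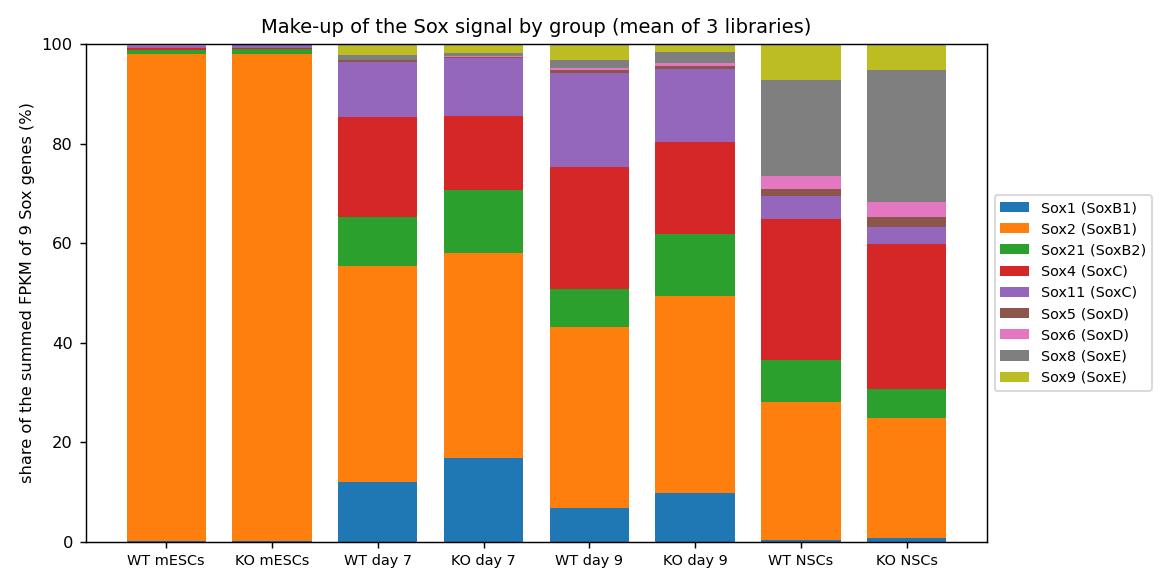
Share of each of the 9 genes in their summed FPKM, as stacked bars from 0 to 100% for the 8 groups, each bar the mean of 3 libraries. Sox2 took 97.8% in WT mESCs and 97.9% in KO mESCs, and 27.9% and 24.1% in NSCs, where Sox4 and Sox8 took most of the rest.

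Set in order over the 8 groups, Sox1 was separated at nearly every step. KO day 7 stood above KO day 9, WT day 7 and WT day 9, and in this order no group overlapped the next, while KO and WT NSCs overlapped. Sox2 was the opposite, since only KO and WT mESCs, at 323 ± 2.66 and 315 ± 3.90 FPKM (SD, n = 3), stood apart, and each of the other 6 groups, from 186 ± 12.6 in KO day 9 to 131 ± 24.5 in KO NSCs, overlapped the next. Sox21 was highest in KO day 9, at 58.6 ± 6.98, which overlapped WT NSCs at 55.1 ± 5.40, followed by KO day 7 at 48.2 ± 1.95. WT day 7, KO NSCs and WT day 9 followed at 31.8 ± 11.1, 31.6 ± 5.89 and 31.1 ± 4.35, each overlapping the next. Sox9 was highest in WT NSCs, then KO NSCs, then WT day 9, with no overlap between these. In Sox4, Sox5, Sox6 and Sox8 the WT and KO NSCs overlapped at the top.

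In mESCs none of the 9 members was called between KO and WT. limma called 0 of 9, and 0 had an unadjusted p under 0.05, where 0.529% of all genes (64) were called. In a fit blocked by replicate number 0 of 9 members and 98 of all genes were called, and with the block and only the 6 mESC libraries 0 members and 6 genes. Sox2 stood at 326, 322 and 321 FPKM in KO against 310, 316 and 317 in WT, which did not overlap but differed by 0.04 (adjusted p = 0.998). Sox1 was low in both, at 0.169, 0.322 and 0.184 FPKM in KO. The libraries did not overlap in 3 of 9 members, Sox1, Sox2 and Sox4, and in 11% of all genes.

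At day 7 Sox1 was higher in KO. Its libraries stood at 64.9, 57.9 and 70.3 FPKM in KO and at 45.1, 38.0 and 33.1 in WT, so that the lowest KO library lay above the highest WT library. The difference was 0.72 (SE 0.19, adjusted p = 0.0336). It was the only one of the 9 members called, where 3.68% of all genes were. All genes called numbered 446, and 273 without WT replicate 2, 280 without WT replicate 3 and 294 without KO replicate 3. The call was lost without WT replicate 2 (adjusted p = 0.117), WT replicate 3 (0.173), KO replicate 1 (0.103), KO replicate 2 (0.0510) or KO replicate 3 (0.164), and also with a pseudocount of 0.1 (0.179) and with libraries scaled to one sum (0.0605).

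Sox21 stood at 48.1, 46.3 and 50.1 FPKM in KO day 7 and at 44.6, 26.5 and 24.4 in WT. The WT library of replicate 1 lay close to the KO libraries and the other 2 far below. The difference of 0.63 was not called (SE 0.23, adjusted p = 0.163), and it was called at 0.89 without that library (adjusted p = 0.0246). Sox11 and Sox6 also did not overlap between the lines and were not called. In all, 4 of 9 members and 24% of all genes had no overlap at day 7, and the median difference of the 9 was 0.19 against 0.00 for all genes tested.

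At day 9 Sox1, Sox21 and Sox8 were higher in KO. Sox1 was at 46.9, 46.6 and 46.2 FPKM in KO and at 33.0, 24.9 and 25.3 in WT, a difference of 0.74 (SE 0.19, adjusted p = 0.0197). Sox21 was at 50.8, 60.7 and 64.3 in KO and at 35.9, 30.0 and 27.5 in WT, a difference of 0.89 (SE 0.23, adjusted p = 0.0185). Neither gene overlapped between the lines. Sox8, a SoxE gene of the glial lineage and the neural crest, was at 10.7, 9.48 and 11.6 FPKM in KO and at 7.23, 5.77 and 6.76 in WT, a difference of 0.61 (SE 0.15, adjusted p = 0.0156). Of the 9 members 3 were higher and none was lower, where 6.68% of all genes were called and 2.58% were higher. Of all genes called at day 9, 312 of 809 were higher in KO, and with libraries scaled to one sum 205 of 902 were. The count of all genes called was 449 without WT replicate 2, 474 without KO replicate 1 and 494 without WT replicate 3.

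Sox9, the SoxE partner of Sox8, was at 6.64, 8.28 and 8.37 FPKM in KO and at 11.5, 14.5 and 12.4 in WT. All KO libraries lay below all WT libraries, but the difference of -0.65 was not called (SE 0.22, adjusted p = 0.0828). It was called at -0.76 with libraries scaled to one sum (adjusted p = 0.0480), and also with only the compared groups (0.00991) and in a fit blocked by replicate number (0.0320). Sox2 was at 199, 174 and 184 FPKM in KO and at 165, 136 and 142 in WT, with no overlap and a difference of 0.33 (SE 0.13, adjusted p = 0.173). This was called with only the compared groups (0.0423) and with the block (0.0134). The SoxC genes Sox4 and Sox11 overlapped, and their differences were -0.19 and -0.14. Of the 9 members 6 had no overlap at day 9, against 32.3% of all genes.

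The calls at day 9 were lost when single libraries were left out. For Sox1 these were WT replicate 2 (adjusted p = 0.109), WT replicate 3 (0.0937), KO replicate 1 (0.0725), KO replicate 2 (0.0577) and KO replicate 3 (0.0567). For Sox21 they were WT replicate 2 (adjusted p = 0.0764), WT replicate 3 (0.0935), KO replicate 2 (0.0630) and KO replicate 3 (0.0781), and for Sox8 WT replicate 2 (0.107), KO replicate 1 (0.0630) and KO replicate 3 (0.0773). With libraries scaled to one sum the adjusted p was 0.0576 for Sox1, 0.0518 for Sox21 and 0.0687 for Sox8, and with a pseudocount of 0.1 it was 0.125, 0.0686 and 0.0906.

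**Figure D4:**
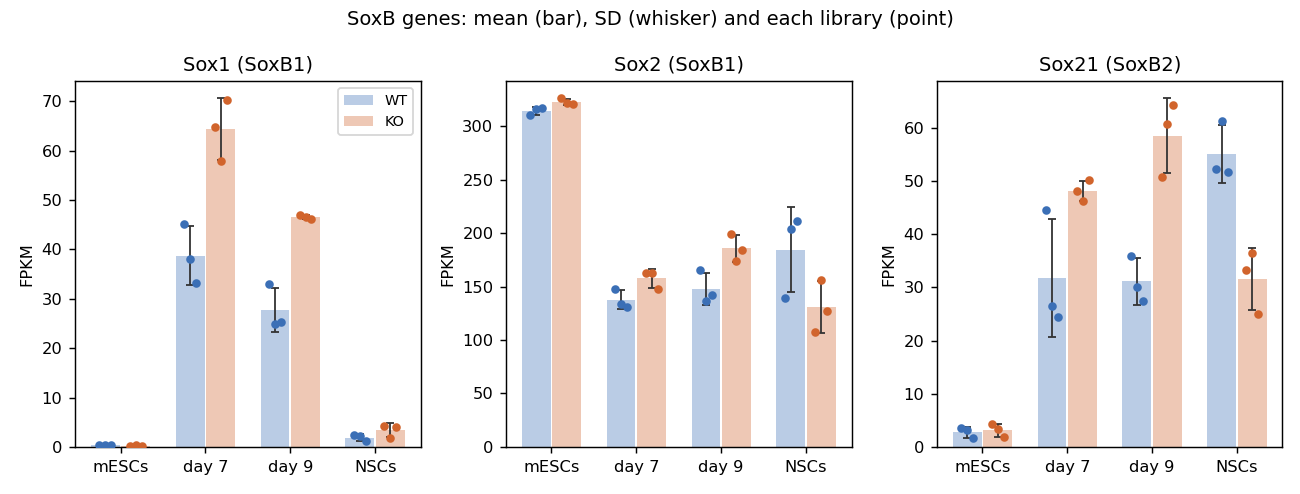
FPKM of the SoxB genes Sox1, Sox2 and Sox21 in each library, by stage, with WT in blue and KO in orange, a bar from 0 to each group mean and a whisker of 1 SD. At day 9 the KO libraries of Sox1 (46.2 to 46.9 FPKM) and Sox21 (50.8 to 64.3) lay above those of WT, and in NSCs the KO libraries of Sox21 (25.0 to 36.4) lay below those of WT (51.7 to 61.3).

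In NSCs 4 members were lower in KO. Sox21 was at 33.3, 36.4 and 25.0 FPKM in KO and at 52.3, 61.3 and 51.7 in WT, a difference of -0.80 (SE 0.23, adjusted p = 0.0404). Sox9 was at 19.7, 34.9 and 30.2 in KO and at 36.1, 57.7 and 50.2 in WT, a difference of -0.75 (SE 0.22, adjusted p = 0.0420). In both genes each KO library lay below each WT library, for Sox9 by little. Sox11 was at 19.8, 18.1 and 15.95 in KO and at 34.0, 23.5 and 27.2 in WT, without overlap, a difference of -0.62 (SE 0.17, adjusted p = 0.0308). Sox2 was at 108, 157 and 128 in KO and at 139, 204 and 211 in WT, a difference of -0.49 (SE 0.13, adjusted p = 0.0308), and here WT replicate 1 lay within the range of KO.

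Of the 9 members none was higher and 4 were lower in KO NSCs, where 6.02% of all genes were called and 3.48% were lower. Of all genes called in NSCs, 421 of 729 were lower in KO, and with libraries scaled to one sum 298 of 654 were. The count of all genes called rose to 1352 without WT replicate 1 and was 406 without KO replicate 3 and 485 without KO replicate 2. Sox8, at 118, 150 and 163 FPKM in KO and 123, 113 and 139 in WT, overlapped and was not called (adjusted p = 0.603). Sox1 ran against the other SoxB genes, at 4.31, 1.90 and 4.06 FPKM in KO and 2.38, 2.14 and 1.11 in WT, a difference of 0.60 that was not called (adjusted p = 0.0686). It was called without WT replicate 1 (adjusted p = 0.0236) or KO replicate 2 (0.00375). In 3 of 9 members, and in 16.7% of all genes, the libraries did not overlap.

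Same-numbered WT and KO libraries deviated together in NSCs, so the values with the replicate number as a block are given. With the block and all 24 libraries the adjusted p was 0.00140 for Sox2, 0.00156 for Sox11, 0.00669 for Sox21 and 0.0163 for Sox9. With the block and only the 6 NSC libraries it was 0.172, 0.165, 0.101 and 0.0833, no member was called, and 12 of all genes were. With the 6 libraries and no block it was 0.427, 0.199, 0.123 and 0.305.

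The NSC calls too were lost without single libraries. For Sox21 these were WT replicate 2 (adjusted p = 0.113), WT replicate 3 (0.0771), KO replicate 1 (0.0698), KO replicate 2 (0.0519) and KO replicate 3 (0.209), and for Sox9 WT replicate 2 (0.149), WT replicate 3 (0.125), KO replicate 1 (0.210) and KO replicate 3 (0.0807). For Sox11 they were WT replicate 1 (adjusted p = 0.0903), WT replicate 3 (0.0687), KO replicate 2 (0.0776) and KO replicate 3 (0.154), and for Sox2 WT replicate 2 (0.110), WT replicate 3 (0.162), KO replicate 1 (0.154) and KO replicate 3 (0.102). With libraries scaled to one sum none of the 4 was called, with adjusted p from 0.0564 to 0.115. A pseudocount of 0.1 lost Sox9 (adjusted p = 0.156), Sox11 (0.143) and Sox21 (0.0957), and no filter on low values lost Sox9 (0.0542) and Sox21 (0.0535).

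The difference between KO and WT itself differed between day 9 and NSCs for Sox21 and Sox2. For Sox21 it was higher by 0.89 at day 9 and lower by 0.80 in NSCs, so the KO effect in NSCs minus that at day 9 was -1.69 (SE 0.32, adjusted p = 0.00251). The 3 KO libraries all lay above WT at day 9 and all lay below it in NSCs. For Sox2 the same value was -0.82 (SE 0.19, adjusted p = 0.0102). These were 2 of 9 members, where 5.84% of all genes were called, and the median over the 9 was -0.43 against 0.01 over all genes. No left-out library ended either call, with adjusted p up to 0.0103 for Sox21 and 0.0377 for Sox2. That of Sox2 was lost with libraries scaled to one sum (adjusted p = 0.0762) and with only the 12 libraries compared (0.0771). In a fit blocked by replicate number Sox11 was called as well (-0.48, adjusted p = 0.0441, against 0.293 without it), 3 of 9 members in all, where 1107 of 12105 genes were called against 707 without it.

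Against the mESCs, the KO effect did not differ by call for any member. limma called 0 of 9 at day 7, where 1.68% of all genes were called and 1 member had an unadjusted p under 0.05, 0 of 9 at day 9 (2.68%, 3 members) and 0 of 9 in NSCs (2.26%, 5 members). For Sox1 the effect minus that in mESCs was 0.94 at day 7 (SE 0.27, adjusted p = 0.0901) and 0.96 at day 9 (SE 0.27, adjusted p = 0.0661). The second was called without WT day 9 replicate 1 (adjusted p = 0.0396), and with only the 12 libraries compared both were called (adjusted p = 0.0286 and 0.00989). In NSCs, with the block, the values of Sox11 (-0.76, adjusted p = 0.00812), Sox2 (-0.53, adjusted p = 0.0155) and Sox21 (-0.93, adjusted p = 0.0334) were called. Without the block Sox1 was called without WT NSC replicate 1 (adjusted p = 0.0497) or KO NSC replicate 2 (0.0157), Sox2 without WT NSC replicate 1 (0.00822) and Sox11 without KO mESC replicate 3 (0.0311).

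**Figure D5:**
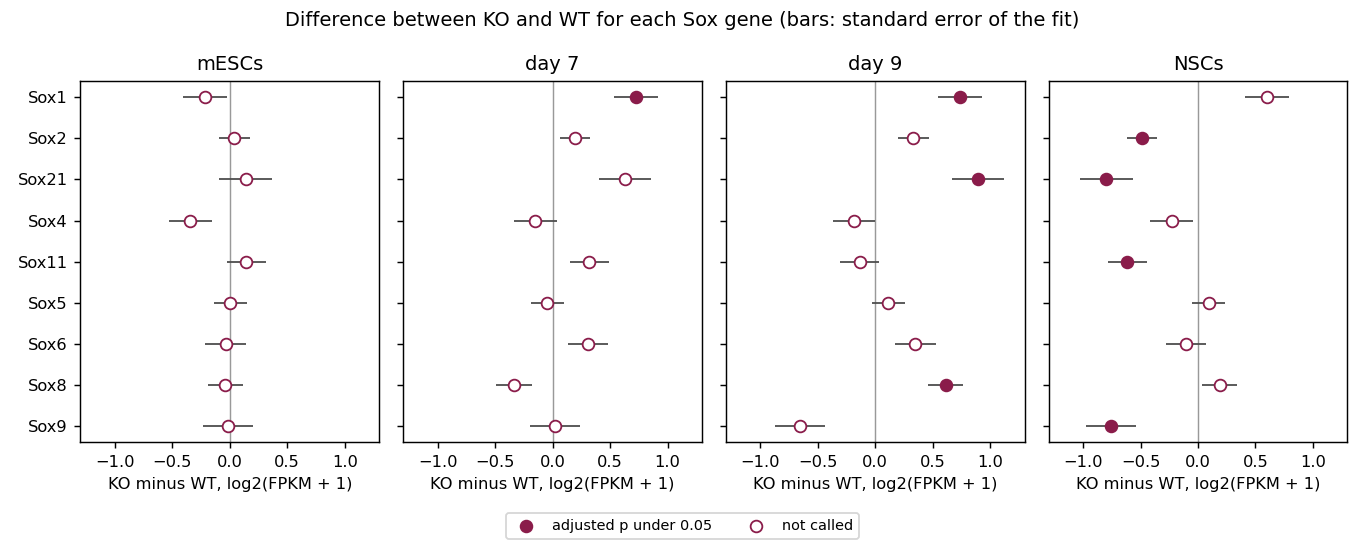
Difference between KO and WT at the 4 stages for the 9 genes, on the log2(FPKM + 1) scale, with bars of 1 standard error from limma and filled symbols for calls. Sox21 lay at 0.89 at day 9 and at -0.80 in NSCs, and no gene was called in mESCs.

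Markers of other cell types moved with the lines at day 7 and day 9. The 5 endoderm markers summed to 20.1, 48.0 and 51.1 FPKM (lowest, median and highest) in WT day 7 and to 0.496, 0.967 and 1.47 in KO, and at day 9 to 27.2, 41.6 and 50.7 against 2.68, 3.51 and 11.6. The 5 mesoderm markers summed to 59.4, 150 and 157 in WT day 7 and to 2.15, 2.64 and 3.90 in KO, and at day 9 to 15.8, 32.9 and 46.6 against 4.56, 6.68 and 15.4. In WT most of the endoderm sum was Foxa2, with means of 29.6 at day 7 and 36.9 at day 9. Most of the mesoderm sum was T, with WT means of 103 and 21.1. In each of these lists 2 genes were tested and both were lower in KO at day 7, Foxa2 (-4.09, adjusted p = 1.39e-06) and Sox17 of endoderm and T (-5.26, adjusted p = 2.92e-07) and Meox1 (-3.47, adjusted p = 0.000725) of mesoderm. At day 9 Foxa2 (-2.85, adjusted p = 7.10e-05), Meox1 (-2.25, adjusted p = 0.0174) and T (-1.80, adjusted p = 0.0157) were lower and Sox17 was not called. The 5 neural crest markers summed at day 7 to 4.62, 6.44 and 8.09 in WT and 8.59, 10.0 and 11.4 in KO, with none of 4 called, and at day 9 to 3.92, 4.04 and 10.8 in WT and 33.8, 45.9 and 57.0 in KO, of which Pax3 made up most, with means of 3.02 and 35.1. Of the 4 tested, Pax3 (3.45, adjusted p = 1.43e-06) and Tfap2a (1.85, adjusted p = 3.00e-06), both transcription factors of the crest and dorsal neural tube, were higher in KO, and Sox10 (means 1.16 and 1.08) and Foxd3 (1.18 and 0.783) were not called. Neuron markers at day 7 summed to 111, 119 and 151 in WT and 154, 157 and 182 in KO, with none of 4 called, and at day 9 to 494, 518 and 540 in WT and 265, 334 and 369 in KO, with Stmn2 alone called (-0.78, adjusted p = 0.00233). Astrocyte markers at day 9 summed to 25.9, 28.4 and 30.8 in WT and 6.97, 10.0 and 13.1 in KO, and 1 of 4 was called, Slc1a3, lower in KO. Oligodendrocyte-lineage markers at day 7 summed to 7.50, 7.88 and 10.9 in WT and 2.80, 3.70 and 3.73 in KO, and 1 of 5 was called, Olig2, lower in KO at day 7 (-1.39, adjusted p = 0.0106) and day 9 (-1.29, adjusted p = 0.0127). Of the 6 neural stem cell markers Olig2 and Vim (-0.71, adjusted p = 0.00946) were lower at day 7, and at day 9 Slc1a3 and Olig2 were lower and Pax6 was higher. Their part in the differences of Sox1, Sox8, Sox9 and Sox21 was not tested.

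In NSCs, neural stem cell markers summed to 5526, 5608 and 7054 FPKM in WT and 4064, 4783 and 4933 in KO. Of the 6, Vim, an intermediate filament gene, was lower in KO (-0.55, adjusted p = 0.0415) and the other 5 were not called. Oligodendrocyte-lineage markers summed to 1481, 1483 and 1500 in WT and 1635, 1732 and 1861 in KO, and 2 of the 5 were called, Sox10 (-1.70, adjusted p = 0.00915) and Cspg4 (-0.75, adjusted p = 0.0180), both lower in KO, where 3.48% of all genes were. The sum was higher through Olig1 (means 1121 in WT and 1369 in KO) and Olig2 (338 and 361), which were not called. Astrocyte markers summed to 177, 374 and 420 in WT and 384, 401 and 481 in KO, and S100b was higher (1.37, adjusted p = 0.0226). Of the 4 neural crest markers tested 1 was higher in KO, Tfap2a (2.16, adjusted p = 8.98e-07), with means of 0.455 in WT and 5.60 in KO, and 1 was lower, Sox10, while the sums of the list overlapped. Endoderm markers summed to 0, 0 and 0.0597 in WT and 1.59, 2.12 and 4.00 in KO, mostly Foxa2 and Gata4, and neither of the 2 tested was called. Pluripotency markers summed to 10.47, 11.3 and 12.6 in WT and 5.72, 7.40 and 9.99 in KO, with none of 6 called. Their part in the differences of Sox2, Sox9, Sox11 and Sox21 was not tested.

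Other Sox genes were followed as a list of 10, of which 5 were tested. None was called in mESCs. Sox17, an endoderm factor, was lower in KO at day 7 (-2.69, adjusted p = 1.53e-06), where its means were 6.33 FPKM in WT and 0.0425 in KO. Sox12, the third SoxC gene, was higher in KO at day 7 (0.47, adjusted p = 0.00600) and at day 9 (0.42, adjusted p = 0.00986). Sox10, the SoxE gene of oligodendrocytes and the neural crest, was lower in KO NSCs as given with the oligodendrocyte markers. Its levels there were 5.56 ± 4.33 FPKM in WT, a wide spread, and 0.607 ± 0.284 in KO (SD, n = 3).

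Known partners and targets of the members were counted by subgroup. Of 7 partners and targets of Sox2 in pluripotent cells, 6 fell in WT between mESCs and day 7, Klf4 (-4.78, adjusted p = 6.27e-10) and Nanog (-3.56, adjusted p = 3.24e-10) among them, as Sox2 did, with a median of -2.96 against -0.02 over all genes, of which 3651 of 12105 were lower. Between KO and WT none was called in mESCs, day 7 cells or NSCs, and at day 9 Lefty1, an inhibitor of Nodal, was higher (0.87, adjusted p = 0.00861). Of 7 partners and targets of SoxB1 proteins in neural cells, all 7 rose in WT between mESCs and day 7, with Hes5, an effector of Notch, at 3.88 (adjusted p = 1.29e-05) and Pax6 at 3.84 (adjusted p = 1.34e-11), and their median was 2.57. Of all genes 3520 of 12105 rose there. In KO against WT, 1 of the 7 was called, Pax6 at day 9 (0.83, adjusted p = 0.0368), where 6.68% of all genes were called, and the median of the 7 at day 9 was 0.04 against 0.00 for all genes.

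Of 5 targets of SoxC proteins in neurons, 2 were lower in KO at day 9, Gap43 of growing axons (-1.80, adjusted p = 8.49e-05) and the neuronal factor Neurod1 (-1.19, adjusted p = 0.000892), and in NSCs Gap43 was (-1.11, adjusted p = 0.0120). Of all genes 6.68% were called at day 9 and 6.02% in NSCs. The medians of the 5 were -0.66 at day 9 and -0.62 in NSCs, against 0.00 and 0.01 over all genes, while Sox4 and Sox11 themselves were not called at day 9. Of 6 tested partners and targets of SoxD and SoxE proteins, 2 were lower in KO at day 9, the glutamate transporter gene Slc1a3 (-1.50, adjusted p = 0.000381) and Nfia, a partner of Sox9 (-0.45, adjusted p = 0.0235). Nfia was low in both lines there, with means of 0.965 FPKM in WT and 0.434 in KO. The median over the 6 was 0.25 against 0.00 over all genes, of which 6.68% were called. None of these 6 was called in NSCs, where Sox9 was lower.

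Each member was set beside the 2 tested genes outside the Sox family most like it over the 24 libraries, by Pearson correlation of log2(FPKM + 1). The points share stage and library, so the values describe the course over the stages. Sox2 had the least close matches, Oxa1l (r = 0.917) and Aspscr1 (r = 0.915). Sox1 was matched by Car14 (r = 0.981) and Myl9 (r = 0.980), and Sox21 by Rprm and Cecr6 (both r = 0.976). Sox4 was matched by Pea15a and Grik5 (both r = 0.992) and Sox11 by Crmp1 (r = 0.991) and Cntfr (r = 0.989). Sox6 and Sox8 shared a match, Bai3 (r = 0.990 and 0.993), with Pnmal2 (r = 0.993) and Gpm6a (r = 0.992) as the other match of each. Sox5 was matched by Npas3 (r = 0.991) and Zfp191 (r = 0.990), and Sox9 by AU040320 (r = 0.985) and B3gnt1 (r = 0.984). Among the members themselves r was 0.986 between Sox6 and Sox8 and 0.708 between Sox1 and Sox21, while Sox2 was negative with each of the 8 others.

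Sox1 and Sox2 share their loci with other entries of the table. Sox2 lies at chr3:34548927-34551383 on the plus strand of mm9, inside Sox2ot, a long noncoding RNA on the same strand at chr3:34003360-34581541. None of the 43 Sox2ot exons of the annotation overlapped Sox2, but how the authors' program divided reads between them is not stated. Sox2ot was lower in KO at day 9 (-0.82, adjusted p = 0.0293), with means of 12.9 FPKM in WT and 7.05 in KO, while Sox2 stood higher there. In NSCs its means were 1.90 and 1.28 FPKM, against 185 and 131 for Sox2. The entry of Sox1 covers chr8:12385770-12436732 and is shared with Gm5607, whose group means reached at most 3.06 FPKM and which was not tested.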

How the data were processed

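Per the labels and the study's methods, the authors made libraries with Illumina Stranded mRNA Prep, trimmed single-end reads with Trim Galore 0.6.6, aligned them to mm9 with TopHat2 2.1.1, discarded X-chromosome and ribosomal RNA reads and then used Cuffdiff of the Cufflinks suite. The authors deposited FPKM per gene and library, with a status of each estimate; the library normalization and the strand setting are not given in the sources used here. Of 36 FPKM columns, 12 belong to no sample analysed here and were not used.

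Of 23119 genes, 1091 on X or Y and 1 with failed estimates were left out, and the 12105 with a mean of at least 1 FPKM over the 24 libraries were tested. limma 3.58.1 (statmod 1.5.0, R 4.3.3) was fitted to log2(FPKM + 1) with 8 groups and no intercept, with trend and robust eBayes, two-sided, and was tested on simulated data. The 16 contrasts were KO against WT at 4 stages, 8 between stages and 4 differences of KO effects. Alternatives were a pseudocount of 0.1, no filter, libraries scaled to one sum of FPKM, the compared groups alone, the replicate number as a block, and each library left out. The block with the compared groups alone was added after the data were seen.

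The replicate numbers come from the sample labels. Deviations of same-numbered WT and KO libraries from their group means correlated at 0.29, 0.44 and 0.14 in mESCs and 0.34, 0.18 and 0.24 in NSCs, all over 0.1, so counts or values with the block stand beside the results from these stages. At day 7 (0.10, 0.084 and 0.038), at day 9 (0.015, 0.029 and -0.11) and between stages they did not all exceed 0.1. Libraries of a group shared at most 3.74% of values, so none was a copy.

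Named were the 9 members, Smchd1, entries that overlap a member and the 2 nearest genes of each member. In the lists of partners, targets and other Sox genes at most 2 called genes per comparison were named. From the marker lists more genes were named, some of them not called. Members and lists were chosen with earlier results of these data known. Promoters came from RefSeq (8 of 9 members matched) and coding sequences from GENCODE vM1 (8 of 9). No protein table was used.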

Additional observations from a re-analysis of the deposited data

Results flagged for a closer look

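For 2 genes the difference between KO and WT was itself different in NSCs and at day 9, by the interaction term of limma. For Sox21 the KO effect in NSCs minus that at day 9 was -1.69 (SE 0.32, adjusted p = 0.00251), with KO above WT in all 3 libraries at day 9 and below WT in all 3 in NSCs. For Sox2 it was -0.82 (SE 0.19, adjusted p = 0.0102), a call that was lost with libraries scaled to one sum (adjusted p = 0.0762) and with only the libraries compared (0.0771), while that of Sox21 held under both. NSCs and day 9 cells came from different protocols, and stage and protocol cannot be told apart. Groups of 3 libraries are too small for the test of single outlying samples, which was not made.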

How the results depend on the processing

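No called difference of a member changed sign under any alternative. The values at risk were the counts of members called between KO and WT. With a pseudocount of 0.1 they were 0 at day 7, 0 at day 9 and 1 in NSCs (338, 542 and 699 of all genes). The KO effect in NSCs minus that in mESCs was called for 1 (Sox1), with 301 of all genes called against 274. With libraries scaled to one sum of FPKM they were 0, 1 and 0 (405, 902 and 654 of all genes), with 1 for NSCs minus day 9 (Sox21), where 851 of all genes were called against 707. This scaling also moved the median difference of all genes, in WT day 7 against mESCs from -0.02 to 0.18 and in KO NSCs against KO mESCs from 0.00 to 0.43. With no filter 2 members were called in NSCs (876 of 18156 genes). With the compared groups alone 5 were called at day 9 (all genes called 1377, against 809), 0 in NSCs (58, against 729) and 8 in KO day 9 against KO day 7 (4964, against 3709), with 1 for the KO effect at day 7 minus mESCs, 1 at day 9 minus mESCs and 1 in NSCs minus day 9 (153, 333 and 532 of all genes, against 203, 324 and 707).

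With the replicate block over all libraries 2 members were called at day 7 (Sox21 added, adjusted p = 0.0332), 5 at day 9 (Sox9, 0.0320, and Sox2, 0.0134, added), 3 for the KO effect in NSCs minus mESCs and 3 for NSCs minus day 9 (Sox11 added, 0.0441), and Sox1 was called in WT day 9 against WT day 7 (0.0483). The block also raised the calls among all genes in the first 4 of these comparisons, from 446 to 641, 809 to 1155, 274 to 504 and 707 to 1107, and lowered them in the last, from 4090 to 3895. With the block and the compared groups alone 0 were called in NSCs and 0 in mESCs.

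Leaving out 1 library gave 0 to 2 calls at day 7, 0 to 3 at day 9 and 0 to 4 in NSCs, 0 to 1 for the KO effect at day 9 minus mESCs and 0 to 2 in NSCs minus mESCs. The counts of all genes called moved as well, as given with each stage. For the KO effect minus mESCs they were 360 at day 9 and 343 in NSCs without WT mESC replicate 2. Without KO mESC replicate 3 they were 221 and 150, against 324 and 274 with all 24 libraries. Leaving out 1 library also changed the sign of some differences that were not called. In KO against WT in mESCs these ranged from -0.0199 to 0.0460 for Sox5, -0.14 to 0.10 for Sox6, -0.16 to 0.0664 for Sox8, -0.0447 to 0.0256 for Sox9, -0.0312 to 0.35 for Sox11 and -0.11 to 0.39 for Sox21. At day 7 they ranged from -0.11 to 0.0310 for Sox5 and -0.25 to 0.19 for Sox9, and in NSCs from -0.47 to 0.0147 for Sox4, -0.0588 to 0.18 for Sox5 and -0.26 to 0.0782 for Sox6. Sox21 in WT day 9 against WT day 7 ranged from -0.15 to 0.27. A group left with 2 libraries keeps the spread pooled over all groups. Read totals are not known, so no counting error stands beside low levels such as those of Sox5, Sox6 and Sox9 in mESCs.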
